A study of Mus musculus with 2 samples.

Results

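Oxidative phosphorylation genes were taken from the 32183 genes of the count tables by their symbols: Nduf for complex I, Uqcr and mt-Cytb for complex III, Cox4i, Cox5, Cox6, Cox7, Cox8 and mt-Co for complex IV, Atp5 and mt-Atp for complex V, and mt-Nd for the complex I subunits encoded in the mitochondrial genome. The rule found 103 genes, of which 90 were nuclear and 13 mitochondrially encoded. By symbol, the nuclear genes were 39 subunits of complex I, 8 complex I assembly factors (Ndufaf), 8 genes of complex III, 18 of complex IV and 17 of complex V. Ndufa4 and Ndufa4l2 were counted with complex I by symbol, although Ndufa4 is now known as a complex IV subunit. No measured value entered the rule. The cells came from the celiac and superior mesenteric ganglia of adult mice aged 7 to 8 weeks, 20 animals of both sexes in all, dissected, digested and triturated, and profiled as 2 droplet libraries of 3′ transcript ends (10x Genomics 3′ v3.1). The libraries form 1 group, with no treatment and no named allele, and neither the strain nor the split of animals between libraries is stated in the sources used here. Replication is therefore over 2 libraries. A shift common to a whole library is removed in the fit. The p-values measure how far differences between populations vary from library to library, a spread pooled over 15 populations and shared across genes. That spread may be technical and does not stand for variation between animals.

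Oxidative phosphorylation is carried out by protein complexes of the inner mitochondrial membrane. Complexes I, III and IV pass electrons to oxygen and pump protons, and complex V (ATP synthase) uses the proton gradient to make ATP. Most subunits are encoded in the nucleus, made on cytosolic ribosomes and imported, while a small set is transcribed and translated inside the mitochondrion, so that each complex other than complex II draws on both genomes. Sympathetic neurons, their satellite glia and vascular smooth muscle all rely on mitochondria for ATP. Some subunits exist as isoforms from separate genes that are known to be restricted to certain tissues, such as Cox4i2, Ndufa4l2, Cox7a1 and Cox6b2.

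The libraries held 94521010 and 95235439 unique molecular identifiers (UMIs, each standing for 1 captured transcript) in the deposited barcodes, and no barcode had fewer than 1501 UMIs. The 103 genes took 5.40% and 5.03% of all UMIs, the nuclear genes 1.646% and 1.496% and the mitochondrial genes 3.75% and 3.53%. No barcode exceeded 10.0% mitochondrial UMIs (highest values 9.995% and 9.998%), so the mitochondrial level of every cell is bounded from above in the deposited tables. After removal of 561 and 625 marked doublets, 12033 and 11654 barcodes were analysed, and 64 barcode sequences occurred in both libraries. Cells were named as like a given type from marker genes of that type, and each cell's UMIs were divided at random into a part that formed the clusters and a part that was measured, with the 103 genes kept out of the clustering. Neuron clusters held 1766 droplets, which split into 263 deep neurons (median 20289 and 20704 UMIs in libraries 1 and 2), 1343 droplets from clusters with a median under 5000 UMIs (2012 and 2073), called low-UMI neuronal droplets here, and 160 droplets of deeper clusters led by markers of other cell types. The low-UMI droplets include a cluster of 179 led by satellite glia markers. Satellite glia, the cells that wrap sympathetic neurons, were divided into clusters with more and with less Malat1, a long RNA kept in the nucleus. The cluster with more Malat1 scored nearly the same for satellite glia and for non-myelinating Schwann markers, so its type is not settled and it is called Malat1-high glia. Levels are given as UMIs per 1000000 UMIs of the population (CPM), on the measured UMIs unless stated. Fold changes come from edgeR's quasi-likelihood test over 15 populations in both libraries. The SE given with a fold change was derived from that test, as the size of the log2 fold change divided by the square root of the F statistic. Of the 90 nuclear genes, 86 passed the filter on low counts. Cox6a2, Cox7b2, Cox8b and Cox8c did not.

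Upstream sequences were compared because many oxidative phosphorylation genes are known targets of nuclear respiratory factor 1 (NRF1) and of ETS-family factors such as GABPA. Of the 90 nuclear genes, 72 had a RefSeq entry in the promoter table (GRCm38.p6), and the 250 bases before the annotated start were searched on both strands. The NRF1 sequence GCGCATGC was present in 8 of the 72 (11.11%; Atp5g2, Atp5k, Atp5l, Cox6a1, Ndufa11, Ndufa6, Ndufa8 and Ndufaf4), against 2.32% of 27025 promoters of that length. The ETS sequence CCGGAAG was present in 12 (16.67%), against 7.05% of all. The YY1 sequence AAGATGGC was present in 0, against 1.59%, the TATA sequence TATAAA in 7 (9.72%), against 12.97%, and the E-box CACGTG in 5 (6.94%), against 6.05%. None of these letter strings lies within another, and a palindromic NRF1 site matches on both strands. Median GC content was 56.4% in these promoters and 52.0% in all. A match of letters is a description and does not show binding. The following 250-base stretches are printed 5′ to 3′ on the gene's strand, with NRF1 and ETS matches of either strand in capitals, to set broadly used subunits (Cox6a1, Ndufa11, Cox6b1) beside isoforms that were restricted to certain cells (Cox6b2, the partner of Cox6b1, and Cox7a1).
Cox6a1, chr5:115348959-115349208, minus strand: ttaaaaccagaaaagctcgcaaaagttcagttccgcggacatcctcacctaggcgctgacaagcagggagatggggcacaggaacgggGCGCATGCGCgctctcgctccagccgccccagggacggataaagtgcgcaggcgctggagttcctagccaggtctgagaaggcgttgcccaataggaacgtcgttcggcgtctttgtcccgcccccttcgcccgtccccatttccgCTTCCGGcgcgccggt
Ndufa11, chr17:56717512-56717761, plus strand: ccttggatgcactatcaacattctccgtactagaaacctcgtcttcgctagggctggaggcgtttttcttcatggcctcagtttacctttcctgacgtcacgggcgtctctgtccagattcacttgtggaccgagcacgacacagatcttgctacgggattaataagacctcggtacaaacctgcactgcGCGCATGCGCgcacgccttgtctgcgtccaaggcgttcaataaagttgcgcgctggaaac
Cox6b1, chr7:30626115-30626364, minus strand: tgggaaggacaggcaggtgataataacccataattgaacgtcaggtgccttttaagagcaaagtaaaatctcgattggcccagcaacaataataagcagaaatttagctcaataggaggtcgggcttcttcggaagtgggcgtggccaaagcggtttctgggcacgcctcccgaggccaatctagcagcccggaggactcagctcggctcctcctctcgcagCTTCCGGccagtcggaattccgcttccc
Cox6b2, chr7:4753095-4753344, minus strand: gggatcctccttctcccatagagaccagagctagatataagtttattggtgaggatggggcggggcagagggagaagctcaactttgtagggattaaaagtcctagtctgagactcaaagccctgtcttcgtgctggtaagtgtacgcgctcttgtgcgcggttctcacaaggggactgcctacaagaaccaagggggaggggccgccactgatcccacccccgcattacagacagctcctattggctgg
Cox7a1, chr7:30183921-30184170, plus strand: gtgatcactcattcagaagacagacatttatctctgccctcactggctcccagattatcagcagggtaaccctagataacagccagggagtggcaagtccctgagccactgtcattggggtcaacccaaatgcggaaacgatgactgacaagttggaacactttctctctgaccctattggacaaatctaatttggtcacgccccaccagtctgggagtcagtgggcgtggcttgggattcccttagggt
Cox6a1 held an NRF1 and an ETS match, Ndufa11 an NRF1 match and Cox6b1 an ETS match. None of the 3 letter strings for NRF1, ETS and YY1 was in the stretches of Cox6b2 and Cox7a1, which is the usual state of these promoters: only 18 of the 72 (25.0%) held any of the 3, against 10.42% of all. The 5 stretches were chosen with their matches known and do not relate matches to expression. The Cox6b1 stretch held 14 CpG dinucleotides and that of Cox6b2 8, with 26 in Cox6a1, 20 in Ndufa11 and 4 in Cox7a1.

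Summed nuclear subunit transcripts were highest in smooth muscle-like cells and in the low-UMI neuronal droplets and lowest in deep neurons. The nuclear sum was 30921 and 28343 CPM in smooth muscle (libraries 1 and 2), 29321 and 28376 CPM in low-UMI neuronal droplets, 20479 and 19520 CPM in perineurial or epineurial cells, 19732 and 18031 CPM in pericytes and 19579 and 17923 CPM in Malat1-low satellite glia. At the low end it was 9992 and 8946 CPM in Malat1-high glia and 6734 and 5982 CPM in deep neurons. All other populations of the plot lay between these, and both the first 2 populations and the neighbours from perineurial cells to Malat1-low glia overlapped between libraries. The mitochondrial sum had a different order. It was highest in Malat1-high glia (62961 and 58014 CPM), followed by smooth muscle (55105 and 52916 CPM) and low-UMI neuronal droplets (53293 and 53465 CPM), which overlapped, with 32822 and 25767 CPM in deep neurons and the lowest values, 18832 and 18134 CPM, in dendritic-like cells. Across the 12 classes, the nuclear and mitochondrial sums had a Spearman rho of 0.664 in library 1 and 0.727 in library 2, a description over classes that share library and depth.

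**Figure D1:**
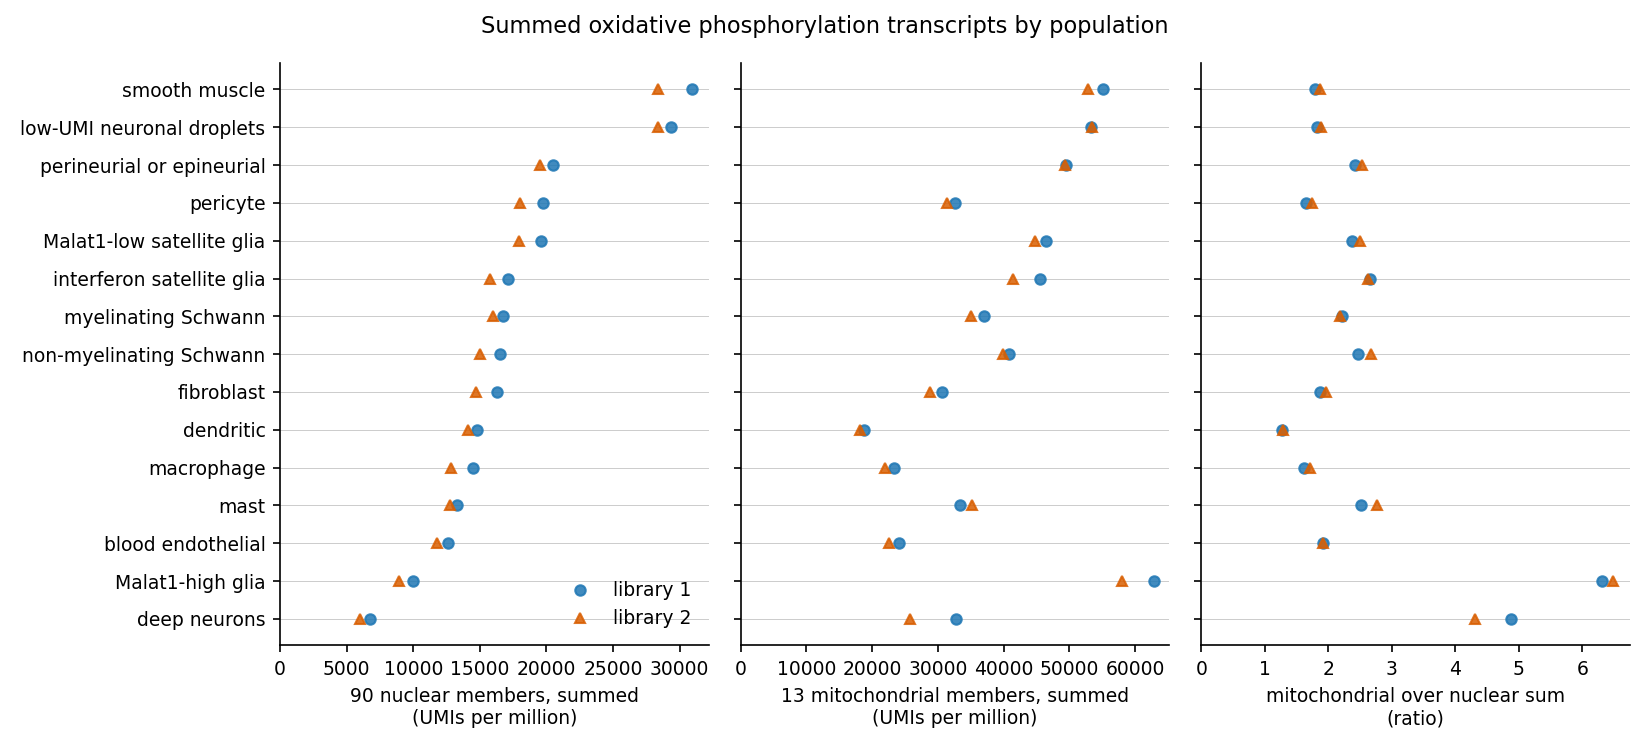
Summed CPM of the 90 nuclear genes (left) and the 13 mitochondrial genes (middle) and their ratio (right) in 15 populations, with 1 point per library. Deep neurons have the lowest nuclear sums and Malat1-high glia the highest mitochondrial sums, and these populations have the highest ratios.

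The number of mitochondrial UMIs per nuclear subunit UMI showed the same separation. It was 6.30 and 6.48 in Malat1-high glia and 4.87 and 4.31 in deep neurons, against 2.37 and 2.50 in Malat1-low satellite glia and 1.27 and 1.28 in dendritic-like cells. These are ratios of sums. In deep neurons the mitochondrial genes took 3.28% and 2.58% of the summed UMIs, but the median cell had only 1.34% and 0.97%. Droplets above the median thus weigh heavily in the deep-neuron ratio, which need not hold for the typical cell. Each complex contributed to the nuclear difference. Complex I subunits summed to 2485 and 2182 CPM in deep neurons and 9923 and 9726 CPM in low-UMI neuronal droplets, complex IV to 1728 and 1593 CPM against 8308 and 8009 CPM, and complex V to 1819 and 1541 CPM against 8161 and 7869 CPM. The complex I assembly factors differed least, with 230.2 and 223.8 CPM in deep neurons and 333.2 and 333.2 CPM in low-UMI neuronal droplets.

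Deep neurons had lower levels of nearly every nuclear subunit than the low-UMI neuronal droplets. Atp5e, a small subunit of the ATP synthase rotor, was at 70.0 and 55.4 CPM in deep neurons and 564 and 521 CPM in low-UMI droplets, which gave a log2 fold change of -3.09 with an SE of 0.12 and an adjusted p of 2.137e-49. Uqcr10, a small subunit of complex III, was at 50.4 and 42.1 CPM against 372 and 339 CPM, with a log2 fold change of -2.92 (SE 0.13). Ndufa7, an accessory subunit of complex I, was at 57.4 and 47.3 CPM against 388 and 368 CPM, a log2 fold change of -2.83 (SE 0.13). In each of these genes both deep-neuron values lay far below both low-UMI values. Cox8a, a small complex IV subunit, was at 290 and 225 CPM against 1237 and 1190 CPM, and Cox4i1, the common form of the regulatory subunit IV, at 183 and 195 CPM against 1010 and 1066 CPM.

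Counted over the group, 80 of the 86 tested nuclear genes fell in deep neurons, 0 rose and 6 did not pass, where 28.4% of all 16352 genes tested were lower and 28.6% higher. None rose at an unadjusted p under 0.05 in edgeR, nor by adjusted p in DESeq2. Their median log2 fold change was -2.21, beside 0.00 for all genes. By complex, 38 of 39 complex I subunits fell, as did 8 of 8 genes of complex III, 14 of 14 tested of complex IV and 17 of 17 of complex V. The exception in complex I was Ndufs4, an accessory subunit of the electron input arm, at 141 and 134 CPM in deep neurons and 140 and 170 CPM in low-UMI droplets (log2 fold change -0.15, SE 0.13, adjusted p = 0.33 by edgeR's quasi-likelihood test). Ndufs1, which carries iron-sulfur clusters of complex I, fell least among those that passed, from 62.7 and 56.8 CPM in low-UMI droplets to 39.9 and 42.8 CPM in deep neurons. Of the 8 assembly factors, which help build complex I and are not part of it, 3 fell: Ndufaf3 (log2 fold change -2.29), Ndufaf8 (-2.02) and Ndufaf1 (-1.51). The other 5 did not pass, with fold changes from -0.38 to 0.20, such as Ndufaf4 at 43.4 and 49.5 CPM against 44.9 and 47.0 CPM. The counts for Cox4i2 and Ndufa4l2 in the low-UMI droplets came mostly from 1 droplet, described with the isoforms. Cox4i2 and Ndufa4l2 were not lower on the deep side when all neuron droplets were divided at 5000 UMIs per cell (log2 fold changes 0.78 and 1.05, neither past the threshold). That division put the 1 droplet on the deep side, together with droplets of that depth from clusters led by markers of other cell types. The deep side was therefore not the same set of deep neurons.

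The 13 mitochondrial transcripts were also lower in deep neurons, by a smaller amount. mt-Co3, which encodes a core subunit of complex IV, was at 6689 and 5236 CPM in deep neurons and 9795 and 9841 CPM in low-UMI droplets (log2 fold change -0.70, SE 0.07). mt-Nd6, the one protein gene on the light strand of the mitochondrial genome, was at 51.8 and 42.8 CPM against 158 and 172 CPM (log2 fold change -1.77, SE 0.16). These were the smallest and the largest fall, and all 13 passed with a median of -0.90, where 28.4% of all genes tested were lower. When doublets were kept, the droplets of the largest low-UMI cluster were no longer called neuronal and 2 of the 13 were lower and 1 higher. Ratios of summed levels, low-UMI droplets over deep neurons, were 4.35 and 4.74 for nuclear genes and 1.62 and 2.07 for mitochondrial genes. Neighbouring mitochondrial genes overlap at their ends and strand treatment in counting is not given, so the division of UMIs among them is uncertain. The same holds for nuclear subunits with processed pseudogenes.

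Other values moved with this comparison. The low-UMI droplets had satellite glia markers (11 genes) at 10368 and 9118 CPM, against 531 and 400 CPM in deep neurons. Neuron markers (15 genes) were alike in sum, at 21714 and 23137 CPM against 23055 and 23911 CPM, and reached at most 4558 CPM in the other populations. Single neuron markers moved both ways. Values of single neuron clusters in this paragraph are over all UMIs, including the part that formed the clusters. In the largest low-UMI cluster Dbh was at 1384 and 1549 CPM and Snap25 at 979 and 1014 CPM. The larger deep neuron cluster had 482 and 407 CPM of Dbh and 1957 and 1907 CPM of Snap25. Malat1 was at 17558 and 18212 CPM in low-UMI droplets and 77841 and 78253 CPM in deep neurons. The largest cluster of low-UMI droplets (723 droplets, median 1790 UMIs) was led by Gm48099, Cdk8 and Cmss1 and had a nuclear sum of 26006 and 23135 CPM, the second (362 droplets), led by proteasome genes, Gapdh and Sncg, had 46760 and 45965 CPM, and another (179 droplets), led by glia markers, had 18488 and 17589 CPM. Both deep neuron clusters were lower than each of these, with 7442 and 6019 CPM in the first and 6105 and 5872 CPM in the second. The mitochondrial sum was uneven over the low-UMI clusters. It was 54150 and 60748 CPM in the largest and 70469 and 64924 CPM in the one led by glia markers. In the second it was 34202 and 33902 CPM, near the second deep neuron cluster (34204 and 29943 CPM) and above the first (30750 and 22143 CPM). Without the clusters led by glia markers or by Ndufa4l2, a choice made after seeing the data, 82 of the tested nuclear genes fell and the ratio of nuclear sums was 5.39. The ratio of mitochondrial sums was then 1.39 and 1.89 in libraries 1 and 2. The part of glial RNA, free RNA, depth or nuclear RNA in the difference was not tested.

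**Figure D2:**
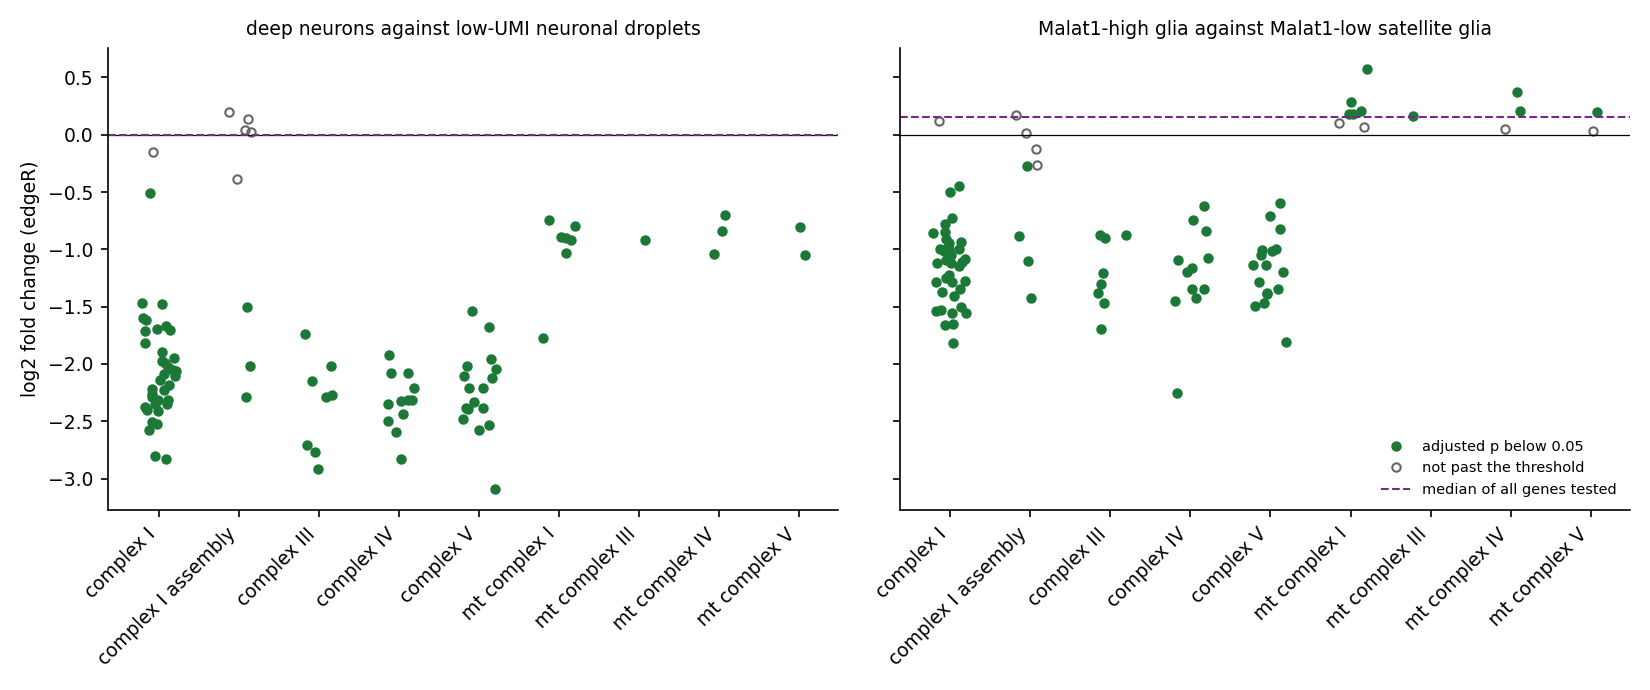
Log2 fold changes from edgeR of the tested genes by complex, without Cox4i2, Cox6b2 and Ndufa4l2, for deep neurons against low-UMI neuronal droplets (left) and Malat1-high glia against Malat1-low satellite glia (right). Nuclear subunits lie below 0 in both panels, apart from Ndufs1 in the right panel, and mitochondrial genes lie below 0 in the left panel and near the median of all genes (dashed) in the right panel.

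Genes of the same energy pathway fell as well, where 28.4% of all genes tested were lower and 28.6% higher. All 4 subunits of complex II, which was not part of the symbol rule, were lower in deep neurons (median log2 fold change -1.42), as were all 6 carriers and porins of the mitochondrial membranes (median -2.19), such as the ADP/ATP carrier gene Slc25a5 (-2.43). Of 16 Krebs cycle genes 13 fell and 1 rose (median -1.49), and of 21 glycolysis genes 16 fell and 1 rose (median -1.57). Cycs, which encodes cytochrome c, fell by 2.62 on the log2 scale. Of the 9 assembly factors for complexes III and V, 3 rose and 3 fell (median 0.11), close to the shares of all genes, with Ttc19 at 1.53 and Uqcc2 at -2.38. Of the 16 assembly factors for complex IV, 2 rose and 9 fell (median -1.04). Of 14 regulators of mitochondrial genes 4 were higher and 4 lower, also at the shares of all genes. Nrf1 rose (1.74) and Ppargc1a, a coactivator of mitochondrial biogenesis, fell (-2.28). Outside mitochondria, all 80 tested cytosolic ribosomal protein genes fell (median -2.13), and all 4 RNAs kept in the nucleus rose (median 2.94), with Meg3 at 3.78. The fall of the nuclear subunits thus had about the size of that of ribosomal protein genes.

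Gene length differed between the members and other genes. The nuclear genes without the 4 restricted isoforms had a median span of 7.53 kb in the annotation used, against 24.2 kb over 16124 genes. In the neuron comparison, the log2 fold change increased with span, with a Spearman rho of 0.370 over 80 members and 0.407 over all genes, given as a description across genes of the same libraries. Members under 20 kb had a median of -2.21 (n = 69), beside -0.83 for all genes of that span. Those of 20 to 50 kb had -1.47 (n = 9), beside 0.10, and the 2 of 50 kb or more, Ndufs4 and Ndufaf2, had -0.27, beside 1.02. In the glia comparison the rho was 0.411 over members and 0.347 over all genes, and the medians of members by span were -1.15, -0.85 and -0.36, beside -0.17, 0.14 and 0.42. In each span range of both comparisons the members were therefore lower than all genes. Among members under 20 kb, Ndufaf4 and Ndufaf7 were near 0 in the neuron comparison, and the 64 subunits without assembly factors ranged from -3.09 to -1.54. Whether intronic reads were counted is not stated in those sources, and their part in this relation was not tested.

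**Figure D3:**
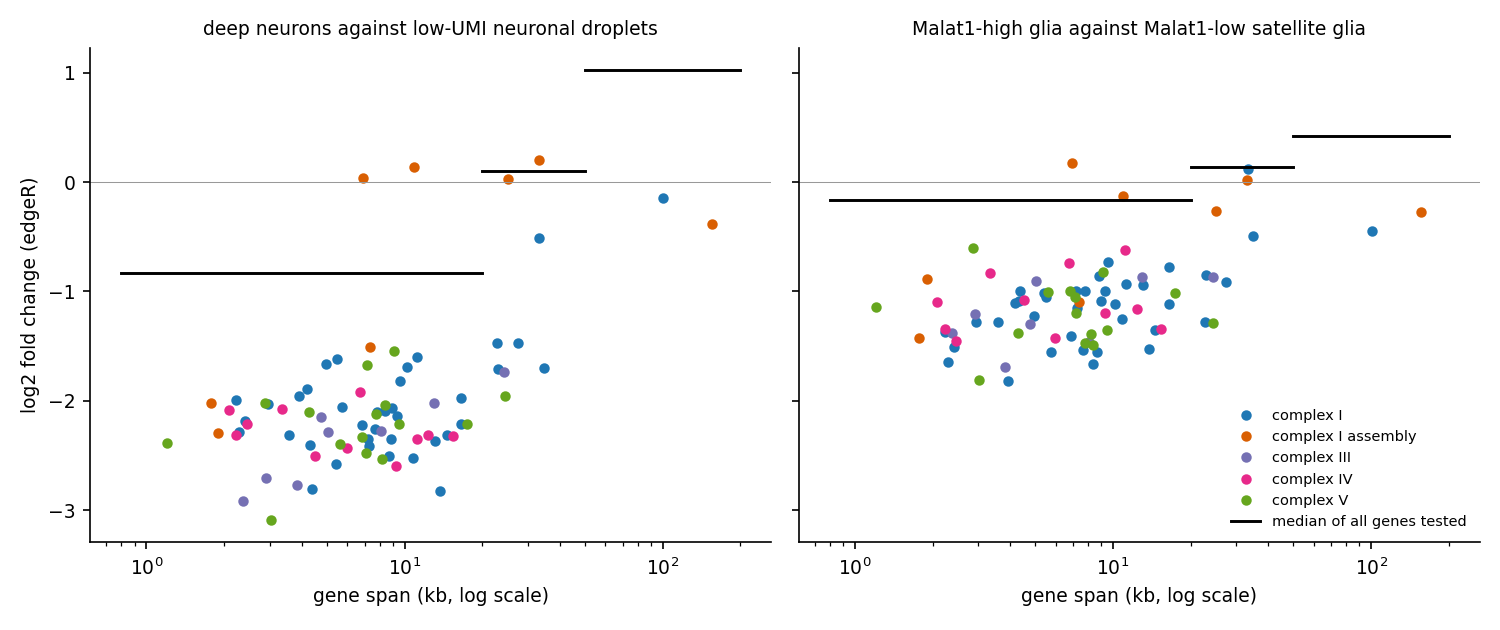
Log2 fold change (edgeR) of 80 nuclear genes against the span of the gene in kb (log axis), coloured by complex, in the neuron comparison (left) and the glia comparison (right), with bars for the median of all genes tested under 20 kb, from 20 to 50 kb and at 50 kb or more. Short subunit genes lie below the bar, and Ndufs4, with the longest span among subunits, lies near 0 in the left panel.

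Malat1-high glia had lower nuclear subunit transcripts than Malat1-low satellite glia, while mitochondrial transcripts were not lower. Cox8a was at 376 and 328 CPM in the Malat1-high glia and 863 and 808 CPM in the Malat1-low glia (log2 fold change -1.45, SE 0.06, adjusted p = 1.2284e-43 by edgeR). Atp5e was at 173 and 155 CPM against 536 and 461 CPM (-1.81, SE 0.07). Uqcr11, a small subunit of complex III, was at 148 and 125 CPM against 394 and 372 CPM (-1.70, SE 0.07), and Ndufs8, an iron-sulfur subunit of complex I, at 32.1 and 29.5 CPM against 95.3 and 93.7 CPM (-1.82, SE 0.12). The libraries of the 2 glia populations did not overlap in any of these genes. Over the group, 79 of 86 nuclear genes fell, 0 rose and 7 did not pass, where 20.0% of all genes tested were lower and 23.0% higher. None rose at an unadjusted p under 0.05 in edgeR, 0 rose in DESeq2 and 1 rose with the RLE scaling factors. Their median log2 fold change was -1.12, beside 0.16 for all genes. By complex, 37 of 39 complex I subunits, 8 of 8 of complex III, 13 of 14 of complex IV, 17 of 17 of complex V and 4 of 8 assembly factors fell. Ndufs1 was the subunit that did not follow, at 52.1 and 47.5 CPM in Malat1-high and 41.8 and 38.1 CPM in Malat1-low glia (log2 fold change 0.12, SE 0.12, adjusted p = 0.47). Cox7a1, a restricted isoform, had the largest fall (-2.25, SE 0.22).

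Of the 13 mitochondrial transcripts, 9 rose in Malat1-high glia and 0 fell, also at an unadjusted p under 0.05, where 23.0% of all genes tested were higher and 20.0% lower. The median log2 fold change of the 13 was 0.18, close to the 0.16 of all genes. mt-Nd6 was at 281 and 268 CPM against 155 and 166 CPM (log2 fold change 0.58, SE 0.07), and mt-Co3 at 11409 and 10311 CPM against 7394 and 7148 CPM (0.37, SE 0.06). In CPM both libraries of the Malat1-high glia were above both libraries of the Malat1-low glia for these genes. The count of 9 was 3 without the library block, 3 with all UMIs, 3 when the upper and lower tertiles of satellite glia by Malat1 were compared and 4 with doublets kept. The share of all genes was not counted under these settings. Nuclear sums were 1.96 and 2.003 times as high in Malat1-low as in Malat1-high glia, and mitochondrial sums 0.738 and 0.773 times as high. In the same depth range, 5000 to 10000 UMIs per cell, the nuclear sum was 8943 and 7987 CPM in Malat1-high and 20901 and 19899 CPM in Malat1-low glia, and the mitochondrial sum 63254 and 58352 CPM against 48391 and 47806 CPM. Depth within that range was not matched between the populations.

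Beside the glia comparison, median UMIs per cell were 4479 and 4810 in Malat1-high glia and 9572 and 9636 in Malat1-low glia. Malat1, which defined the groups, took 115959 and 122925 CPM against 62107 and 66723 CPM, and with Malat1 and mitochondrial genes left out of the total the ratio of nuclear sums was 1.83. Of the Malat1-high cells, 11.1% and 7.86% had 9 to 10% mitochondrial UMIs, close to the upper bound of the tables, against 0.996% and 1.35% of the Malat1-low cells. Satellite glia markers summed to 20701 and 19841 CPM in Malat1-high glia and 46921 and 44866 CPM in Malat1-low satellite glia, beside 19504 and 18734 CPM in non-myelinating Schwann cells. Non-myelinating Schwann markers (10 genes) were at 10141 and 10300 CPM against 8284 and 8657 CPM, and 11776 and 12387 CPM in the Schwann cells themselves. Neuron markers were at 4243 and 4034 CPM against 1882 and 1915 CPM. By satellite glia and neuron markers the Malat1-high glia lay nearer to the non-myelinating Schwann cells than to the Malat1-low glia. By Schwann markers they lay between these, and their nuclear subunit sums were below those of both. The Schwann class pooled clusters unlike in Malat1 on the clustering UMIs. One of 1867 cells had 101283 and 103580 CPM, and one of 1776 cells had 60162 and 64392 CPM. Their nuclear sums are not given apart. Among other genes of the pathway, where 20.0% of all genes tested were lower and 23.0% higher, all 4 complex II subunits fell (median -0.79), all 6 carriers and porins (median -0.83), 12 of 16 Krebs cycle genes (1 rose; median -0.51) and 10 of 21 glycolysis genes (median -0.26). Another 5 glycolysis genes rose, close to the share of all genes. Ldhb, a lactate dehydrogenase subunit, fell by 2.09 on the log2 scale. All 80 tested ribosomal protein genes fell (median -1.82), more than the subunits, and 3 of 4 RNAs kept in the nucleus rose (median 0.63). The part of cell type, neuronal RNA or depth in this comparison was not tested.

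Among cell classes, smooth muscle-like cells stood highest for most members. Each class was set against the unweighted mean of the 11 other classes, with deep neurons standing for neurons and Malat1-low glia for satellite glia, so that the contrasts share populations and are not independent. Ndufb7, an accessory subunit of complex I, was at 384 and 376 CPM in smooth muscle and between 80.5 and 189 CPM in the libraries of deep neurons, fibroblasts, endothelial cells, macrophages, dendritic cells, pericytes, perineurial cells and Malat1-low glia (log2 fold change 1.53, SE 0.07). Cox8a was at 1757 and 1600 CPM in smooth muscle and at most 1001 CPM in those classes (1.50, SE 0.05, adjusted p = 2.56e-60 by edgeR). Atp5b, the catalytic beta subunit of ATP synthase, was at 805 and 817 CPM in smooth muscle and at most 513 CPM in those classes (1.49, SE 0.05). Of the 86 nuclear genes, 80 were higher in smooth muscle, 0 lower and 6 not passed, where 20.4% of all genes were higher and 15.9% lower. None was lower at an unadjusted p under 0.05 or in DESeq2. The nuclear median was 0.96, beside -0.04 for all genes. All 13 mitochondrial genes were higher (median 0.83). By level, smooth muscle was the highest of the 12 classes for 68 of the 90 nuclear genes, for 62 of them in both libraries, and for 8 of the 13 mitochondrial genes. Ranks of classes were counted for the members only, so the share over all genes is not known. Other genes of the pathway were also higher there: all 4 of complex II (median 0.95), all 6 carriers and porins (median 0.94) and 15 of 16 Krebs cycle genes (median 0.85), beside 11 of 21 glycolysis genes (median 0.37, with 4 lower) and 39 of 80 ribosomal protein genes (median 0.13, with 6 lower).

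Deep neurons were at the other end. Of 86 nuclear genes, 77 were lower than the mean of the other classes and 5 higher, where 30.8% of all genes were lower and 35.0% higher, with a nuclear median of -1.62. All 13 mitochondrial genes were lower (median -0.31), so in summed counts the nuclear genes were further below the other classes than the mitochondrial genes. Deep neurons were the lowest class for 72 of 90 nuclear genes, for 66 in both libraries, a rank that was not counted over all genes. The 5 higher genes were Ndufs4 (log2 fold change 0.21, SE 0.09) and the assembly factors Ndufaf5 (0.96), Ndufaf4 (0.76), Ndufaf6 (0.74) and Ndufaf7 (0.62). Ndufaf5, a complex I assembly factor, was at 25.2 and 24.4 CPM in deep neurons, from 36 and 33 UMIs, and at 13.2 and 14.1 CPM in Malat1-low glia. These cells also had all 80 tested ribosomal protein genes lower (median -2.94).

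**Figure D4:**
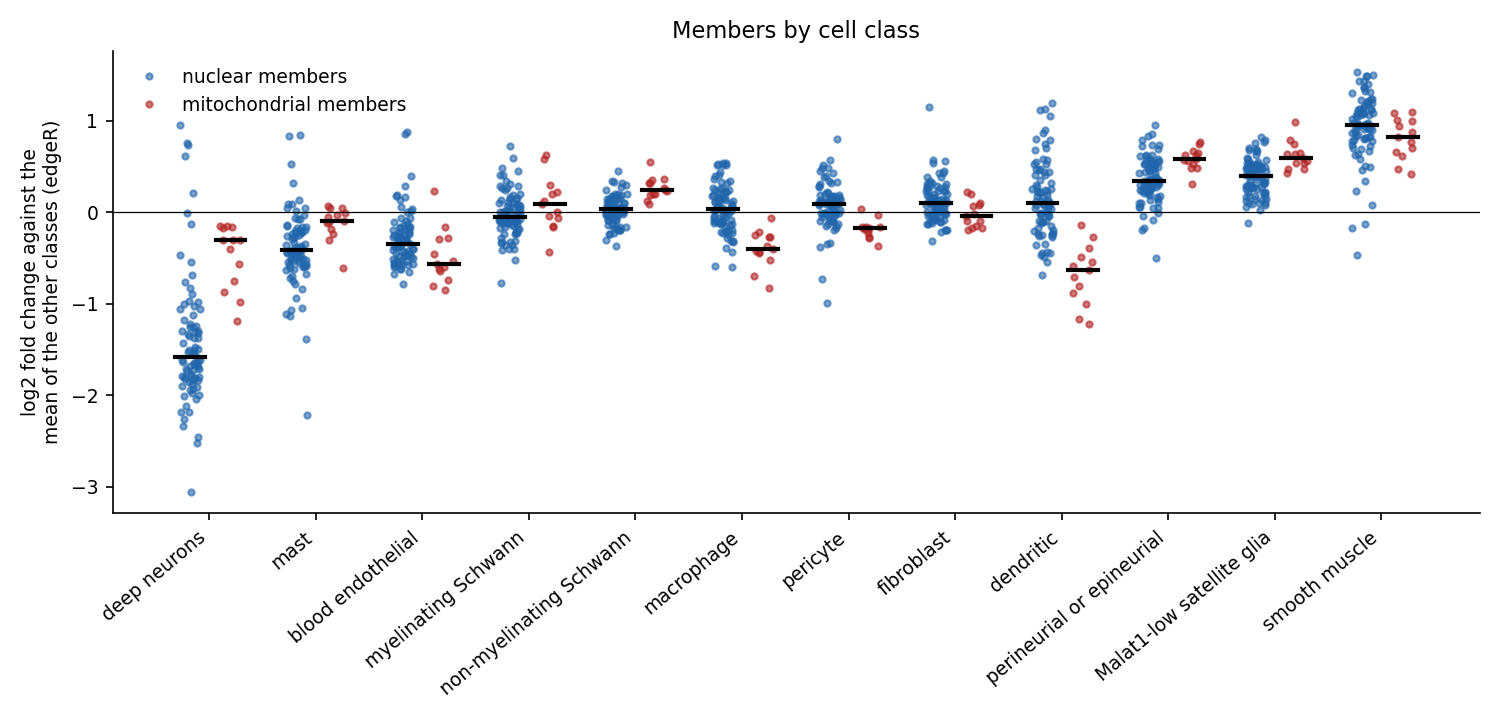
Log2 fold changes (edgeR) of nuclear genes, without Cox4i2, Cox6b2, Cox7a1 and Ndufa4l2, and of the 13 mitochondrial genes in each of 12 classes against the mean of the other 11, with a bar for the median. Smooth muscle has both medians above 0 and deep neurons both below, while dendritic, macrophage and blood endothelial cells have mitochondrial medians below 0.

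Satellite glia and perineurial cells were above the mean of the other classes. In Malat1-low satellite glia 72 nuclear genes were higher and 1 lower (background 32.0% higher, 20.0% lower; nuclear median 0.40), and all 13 mitochondrial genes were higher (median 0.59). In perineurial or epineurial cells 66 were higher and 1 lower (background 26.5% and 16.5%; median 0.35), and all 13 mitochondrial genes were higher (median 0.59). The genes that went the other way were Ndufa4l2 in satellite glia and Cox5a in perineurial cells, the latter at 157 and 160 CPM. Non-myelinating Schwann cells had 16 nuclear genes higher and 12 lower (background 27.0% and 15.1%) and 12 mitochondrial genes higher. With the RLE scaling factors the split in these Schwann cells was 7 higher and 21 lower, so the direction of their nuclear genes depended on the scaling. Shares of all genes called were counted for the main setting only, here and for the other classes. Myelinating Schwann cells (3 higher, 3 lower; background 12.0% and 7.34%) and mast cells (1 higher, 9 lower; background 7.97% and 4.43%) had few calls.

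Blood endothelial cells were low for most members and high for a few. There, 63 nuclear genes were lower and 8 higher (background 19.3% and 29.1%; median -0.36), and 12 of 13 mitochondrial genes were lower. Cox7a2l, which links complexes III and IV into supercomplexes, was at 331 and 362 CPM in endothelial cells and 58.8 and 53.9 CPM in deep neurons (class contrast 0.86, SE 0.05). Ndufa8, an intermembrane-space subunit of complex I, was at 145 and 133 CPM in endothelial cells and 65.5 and 58.6 CPM in macrophages (0.88, SE 0.07). In endothelial cells both genes thus ran against the complex they belong to.

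Dendritic-like cells had the lowest summed mitochondrial transcripts of the classes, while their nuclear genes were near the background. The ranking holds for sums only. The median dendritic-like cell had 1.75% and 1.65% mitochondrial UMIs, above the 1.34% and 0.97% of the median deep neuron. All 13 mitochondrial genes were lower (median -0.63), and dendritic cells were the lowest class for 12 of the 13 in both libraries, again without a count over all genes. Of the nuclear genes 33 were higher and 14 lower (background 30.6% and 23.4%; median 0.09). Atp5g2, a form of the ATP synthase c subunit, had the largest rise (1.20, SE 0.06). Atp5e was at 664 and 580 CPM there and at 467 and 383 CPM in macrophages (class contrast in dendritic cells 1.12, SE 0.05). Ndufa6, an accessory subunit of complex I, was at 296 and 247 CPM (1.12). In dendritic cells 79 of 80 tested ribosomal protein genes were higher too (median 1.77). Macrophages had 31 nuclear genes higher and 15 lower (background 31.2% and 20.1%) and 12 mitochondrial genes lower. With RLE factors or DESeq2 the nuclear split in macrophages was 17 higher and 29 lower. Fibroblasts had 37 higher and 6 lower (background 31.4% and 19.7%), and 30 higher and 12 lower with RLE factors. Cox6c, a small complex IV subunit, stood out there at 1132 and 963 CPM (1.15, SE 0.04), beside 1344 and 1164 CPM in smooth muscle. Pericytes had 14 higher and 2 lower (background 13.4% and 7.94%).

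Isoforms of the same subunit separated cell types more sharply than the sums did. Cox4i2, the alternative form of complex IV subunit IV, was at 561 and 528 CPM in pericytes and 483 and 434 CPM in smooth muscle. It was at 21.9 and 2.18 CPM in low-UMI droplets, 3.56 and 3.77 CPM in perineurial cells and 0 measured UMIs in deep neurons. Shares within isoform sets were taken over all UMIs, and Cox4i2 made up 47.9% and 46.8% of Cox4i1 plus Cox4i2 in pericytes and 33.2% and 33.1% in smooth muscle. Its class contrasts had adjusted p = 2.7621e-85 in pericytes and 1.4533e-92 in smooth muscle (edgeR's quasi-likelihood test, higher in 2 of 2 libraries). Among all UMIs, 77.7% and 73.6% of pericytes had a Cox4i2 UMI, with exact 95% binomial intervals from 72.2% to 82.5% and from 68.1% to 78.6%. In macrophages 0.974% and 0.627% of cells had one, where the median cell held 7945 and 7914 UMIs, more than the 4484 and 4751 UMIs of pericytes. The intervals cover counting error only.

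Ndufa4l2, a paralog of Ndufa4 known as a target of hypoxia-inducible factor, had the same mural pattern. It was at 865 and 898 CPM in pericytes and 746 and 746 CPM in smooth muscle, then at 54.3 and 4.37 CPM in low-UMI droplets and 26.1 and 25.0 CPM in fibroblasts. Ndufa4 itself was at 182 and 163 CPM in pericytes, below the mean of the other classes (log2 fold change -0.99, SE 0.10) and above deep neurons alone among the classes, and at 453 and 421 CPM in smooth muscle. Ndufa4l2 thus took 82.6% and 84.7% of Ndufa4 plus Ndufa4l2 UMIs in pericytes, 62.3% and 64.3% in smooth muscle and 7.9% and 9.0% in fibroblasts. The difference between pericytes and smooth muscle in this share came with Ndufa4 levels that did not overlap between libraries.

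Cox7a1 and Cox6b2, isoforms of complex IV subunits known from muscle and from testis, were highest in perineurial or epineurial cells. Cox7a1 was at 80.6 and 69.8 CPM there, 25.4 and 26.4 CPM in Malat1-low satellite glia and 18.7 and 16.6 CPM in non-myelinating Schwann cells. Cox6b2 was at 75.8 and 66.8 CPM in perineurial cells and 22.8 and 16.0 CPM in Malat1-low satellite glia. In perineurial cells they made up 15.6% and 14.7% of Cox7a2 plus Cox7a1 and 14.8% and 14.2% of Cox6b1 plus Cox6b2 (adjusted p = 1.2295e-53 for Cox7a1 and 2.6519e-44 for Cox6b2 by edgeR). In smooth muscle, neither passed against the other classes.

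The 3 genes for the ATP synthase c subunit encode the same mature protein with different import sequences, and their shares differed by class. Atp5g2 made up 53.9% and 53.6% of their UMIs in dendritic cells and 50.3% and 48.8% in blood endothelial cells, but 23.5% and 22.3% in deep neurons. Atp5g3 made up 36.1% and 38.6% in deep neurons and 19.3% and 19.2% in dendritic cells. Smooth muscle lay between these for both genes, with Atp5g2 at 40.1% and 40.2%.

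**Figure D5:**
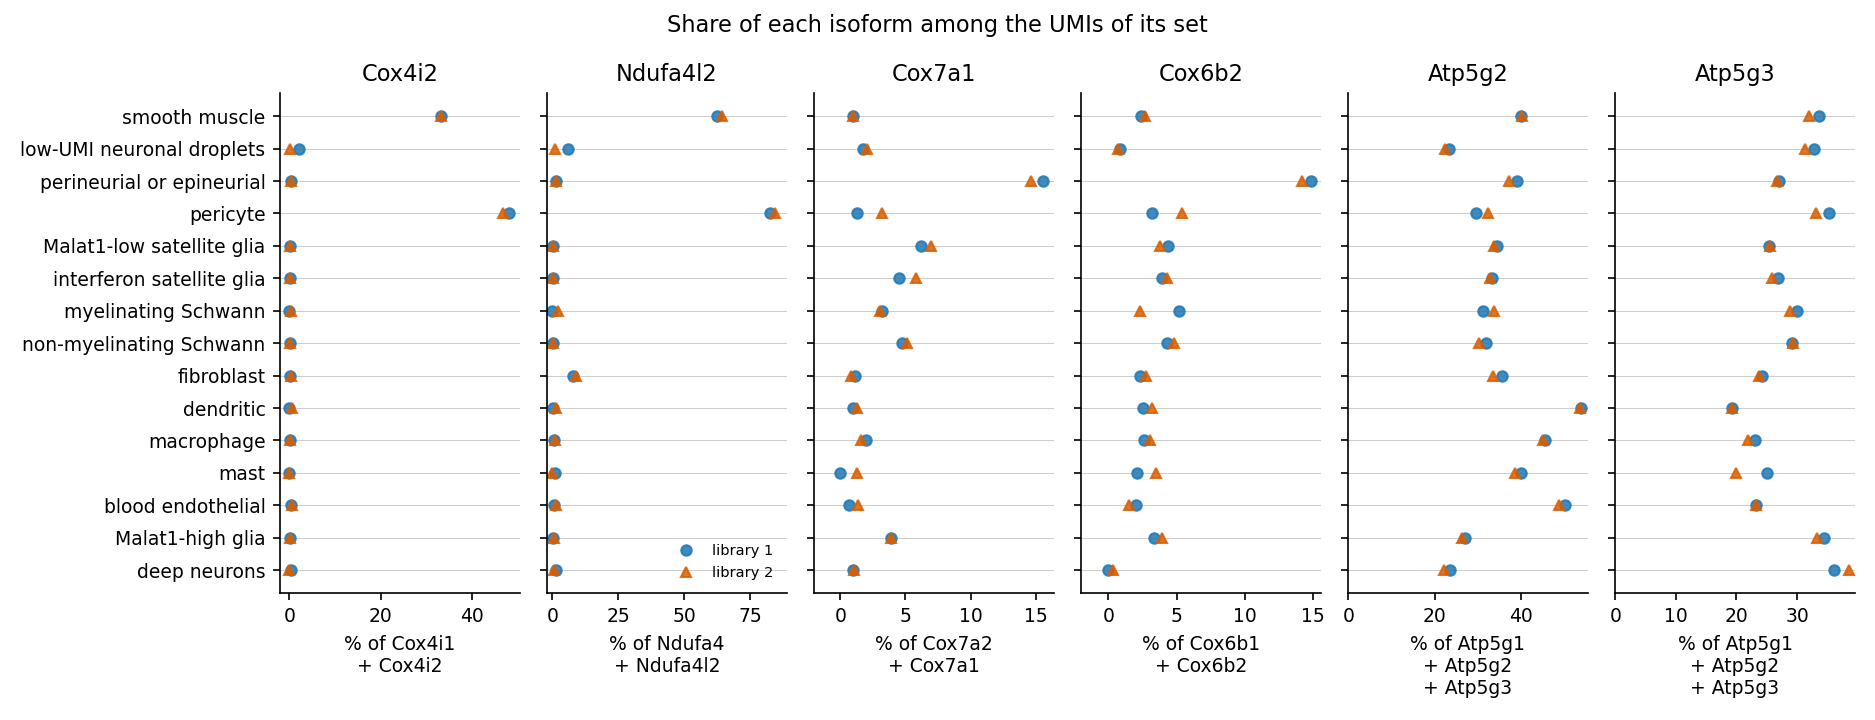
Share of each isoform among all UMIs of its set (percent) in 15 populations, with 1 point per library. Cox4i2 and Ndufa4l2 are high in pericytes and smooth muscle, Cox7a1 and Cox6b2 in perineurial cells, and Atp5g2 is highest in dendritic cells and Atp5g3 in deep neurons.

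The 4 genes that did not pass the filter were near 0. Cox6a2, the muscle form of subunit VIa, had 64 UMIs in all analysed barcodes, of which 59 were in the 2969 macrophage-like and dendritic-like cells. Cox7b2 had 10 UMIs, Cox8c 1 and Cox8b, the muscle form of subunit VIII, 20. Of the Cox8b UMIs, 13 were in 1 droplet of library 1, which clustered with neurons in a low-UMI cluster of 79 droplets led by Ndufa4l2 and Rgs5.

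That droplet, singled out after its values were seen, had 14017 UMIs. It held 78 UMIs of Ndufa4l2, 34 of Cox4i2 and 13 of Cox8b, together with 9 of Higd1c, 207 of Rgs5, 28 of Epas1, 35 of Chga, 6 of Th and 5 of Dbh. A Dbh UMI was also found in 76.9% and 77.2% of macrophages, so the few Dbh UMIs do not mark the droplet as a neuron. The common forms were lower, with 5 UMIs of Ndufa4, 10 of Cox4i1 and 17 of Cox8a. Rgs5 is itself a pericyte marker, with a UMI in 98.5% and 98.6% of pericytes. The other pericyte markers used here, Kcnj8, Abcc9, Notch3, Pdgfrb, Vtn and Higd1b, and the smooth muscle marker Acta2 were at 0 UMIs. Cox4i2, Ndufa4l2, Cox8b, Higd1c and Epas1 are known from oxygen-sensing glomus cells of the carotid body, and whether the droplet was such a cell was not tested. Outside pericytes and smooth muscle it was 1 of 5 barcodes with at least 10 Ndufa4l2 and 5 Cox4i2 UMIs, the others being 1 in dendritic cells, 1 in perineurial cells and 2 in neuron droplets led by other markers. Without it, Ndufa4l2 UMIs of the low-UMI droplets in library 1 fell from 99 to 21, Cox4i2 UMIs from 44 to 10 and Cox8b UMIs from 13 to 0.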

How the data were processed

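The 2 libraries were made from celiac and superior mesenteric ganglia with 10x Genomics 3′ v3.1 chemistry, per the labels' protocols. The authors deposited UMI counts per gene and barcode, made with Cell Ranger 6.1.2 on mm10 per the submitters' processing notes. Intron counting, strand and annotation version are not stated there. The deposited counts begin at 1501 UMIs per barcode and end below 10% mitochondrial UMIs, which bounds mitochondrial levels. Genes and lists were chosen with earlier results of these data known.

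Barcodes with at least 500 genes, 1000 UMIs and at most 20% mitochondrial UMIs were kept. Doublets were marked with Scrublet as run in scanpy 1.11.5 and removed. Each UMI went to the clustering or the measured part with probability 0.5. Clusters (leidenalg 0.10.2, 3000 variable genes without the 103 genes and without mitochondrial genes, 30 components, 15 neighbours, resolution 1, neurons again at 0.8) gave 26 clusters and 9 neuron clusters, named by marker genes. A tie of the Malat1-high cluster between satellite glia and non-myelinating Schwann cells was settled by marker scores centred among glia clusters, a rule chosen after seeing the data. The midpoint of Malat1 levels divided satellite glia. Classes with under 50 cells in either library were left out.

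Counts were summed per library and population, filtered (filterByExpr), scaled (TMM) and tested with edgeR 4.0.16, quasi-likelihood, with library as a block and Benjamini-Hochberg adjustment over 16352 genes at 0.05. All populations of 1 library come from the same suspension, which pairs them. Named genes were, per comparison and complex, the 2 largest rises and the 2 largest falls past the threshold with the same direction in both libraries, all mitochondrial genes and the isoform sets, and per class the 2 largest rises. Other named genes were chosen after their values were seen. On simulated counts of the neuron comparison (15008 genes), 46% of genes changed 2-fold and 90% of those changed 4-fold were recovered, and 0.027% of unchanged genes were called. The simulation drew all populations from 1 mean profile with a small set of genes changed. It lacked the broad differences of the real populations, so these rates need not hold for them. Alternatives were DESeq2 1.42.0, RLE factors, no filter, no block, all UMIs, other clustering genes, doublets kept, thinning to 1000 UMIs, other population limits and other denominators.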

Additional observations from a re-analysis of the deposited data

How the results depend on the processing

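In all alternatives run, 75 to 82 nuclear genes were lower in deep neurons than in low-UMI neuronal droplets, 75 to 79 were lower in Malat1-high glia, and the counts of smooth muscle and deep neurons as classes stayed within 1.5 times. Leaving out 1 library gave ratios of sums only, since no residual degrees of freedom remain for a test: 4.35 to 4.74 (nuclear) and 1.62 to 2.07 (mitochondrial) for low-UMI droplets over deep neurons, and 1.96 to 2.003 and 0.738 to 0.773 for Malat1-low over Malat1-high glia. The cause of the changes below was not tested unless stated. Shares of all genes called were counted for the main setting only, so the counts below have no background of their own.

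With doublets kept, the droplets called low-UMI changed, since the largest of these clusters was then named by erythroid markers. In the neuron comparison 2 mitochondrial genes were then lower and 1 higher, the nuclear ratio was 6.92 and the mitochondrial ratio 1.17, and log2 fold changes reversed for mt-Atp6 (0.15), mt-Atp8 (0.97), mt-Co3 (0.10), mt-Nd2 (0.11), mt-Nd4l (0.24), mt-Nd5 (0.34), mt-Nd6 (0.81) and Cox4i2 (2.82). With all neuron droplets, including those of clusters led by other markers, divided at 5000 UMIs per cell, Cox4i2 (0.78) and Ndufa4l2 (1.05) reversed. The nuclear ratio was 4.11 after thinning and 5.39 without the clusters led by glia markers or Ndufa4l2. The nuclear ratio of Malat1-low over Malat1-high glia was 2.02 with doublets and 1.83 with Malat1 and mitochondrial genes left out of the total. The highest over the lowest class was 4.28 (thinned), 4.12 (doublets) and 4.79 (no assembly factors) for nuclear sums, against 4.67, and 2.93 (all UMIs), 2.61 (thinned) and 2.65 (doublets) for mitochondrial sums, against 2.92.

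The mitochondrial genes higher in Malat1-high glia numbered 3 without the replicate block, 3 with all UMIs, 3 by tertiles of Malat1 and 4 with doublets, against 9, and 1 nuclear gene was higher with RLE factors. Without the replicate block, nuclear genes higher numbered 4 in endothelial cells and 9 in non-myelinating Schwann cells, and those lower 2 in fibroblasts and 0 in perineurial cells. The block changed no other class count by over 1.5 times. RLE factors gave 5 higher in endothelial cells, 12 lower in fibroblasts, 17 higher and 29 lower in macrophages, 2 higher and 2 lower in mast cells, 7 higher and 21 lower in non-myelinating Schwann cells, 3 lower in perineurial cells and 2 lower in Malat1-low glia. DESeq2 gave 16 lower in fibroblasts, 17 higher and 29 lower in macrophages, 2 and 2 in mast cells, 5 higher in myelinating and 6 higher and 22 lower in non-myelinating Schwann cells, 3 lower in perineurial cells and 3 in Malat1-low glia. Without a filter, 2 were lower in Malat1-low glia and in fibroblasts, 4 in mast cells and 8 in myelinating Schwann cells, and 8 were higher in pericytes. All UMIs gave 2 lower in Malat1-low glia, 3 higher and 16 lower in mast cells, 6 higher and 14 lower in myelinating Schwann cells, 6 lower in pericytes and 2 in perineurial cells. With members among the clustering genes, 2 were lower in Malat1-low glia, 5 higher in endothelial cells, 7 lower in myelinating and 10 higher in non-myelinating Schwann cells. Doublets gave 2 lower in Malat1-low glia, 3 in mast cells, 11 in myelinating Schwann cells and 8 higher and 4 lower in pericytes. With Malat1 and mitochondrial genes left out, 2 were lower in Malat1-low glia.

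The mast, myelinating Schwann and pericyte classes had the fewest measured UMIs per library of the 15 populations (142430 to 706233) and the smallest shares of all genes called, and the part of depth in their counts of members was not tested.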
